A study of Homo sapiens with 15 samples.

Results

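The proteasome genes of MOLM-14, a human acute myeloid leukaemia (AML) cell line, were described from 8 RNA-seq libraries of cells given an NR4A1 messenger RNA or the drug dihydroergotamine (DHE). They were taken as every gene named PSMA to PSMG followed by a number, without the interferon-inducible catalytic subunits PSMB8, PSMB9 and PSMB10, that averaged 1 TPM or more, a transcript's share of the library as Salmon estimates it, over the 8 libraries. Of 46 such names, 43 passed. PSMA8, PSMB11 and PSMD15 were listed at 0 in every library. The 43 genes stand in a table of 57964 entries, of which 14367 were tested, all 43 included. They hold 31 subunits of the proteasome itself, with 7 of the alpha ring and 7 of the beta ring of the core, 9 of the base and 8 of the lid. The other genes are 4 core assembly chaperones, 3 base assembly chaperones, and 5 activators and regulators.

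The 4 groups each had 2 libraries, all taken at 6 h. The first 2 groups were electroporated with 100 nM in vitro-transcribed RNA that encodes NR4A1, a nuclear receptor the study treats as a tumour suppressor in AML, or GFP as its control. The other 2 received 10 uM DHE or the DMSO vehicle without electroporation. All groups are the same cell line, so the values describe 1 leukaemia, and nothing in the labels says that duplicates came from separate cultures. NR4A1 itself stood at 719 and 674 TPM with NR4A1 RNA and at 2.49 and 2.84 TPM with GFP RNA, where the values with NR4A1 RNA count the introduced RNA. It stood at 1.43 and 1.67 TPM with DHE and at 1.27 and 1.70 TPM with vehicle.

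The proteasome degrades proteins that carry ubiquitin chains. Its barrel-shaped core is a stack of alpha and beta rings with the proteolytic sites facing inward on beta subunits. A cap of base and lid sits on the core, where the lid removes ubiquitin and the ATPases of the base unfold the substrate and thread it through the alpha ring. Dedicated chaperones help to build the core and the base and are not in the finished particle. When proteasome activity is short, the transcription factor NRF1 (gene NFE2L1) raises most subunit genes together through antioxidant response elements in their promoters, and inhibitors of the proteasome are drugs against blood cancers.

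The 4 proteasome genes that passed both the test and a 1.5-fold limit with DHE, all lower, were the core assembly chaperones PSMG1 and PSMG4 and the alpha subunits PSMA6 and PSMA5. The 250 bases before 1 RefSeq transcription start of each are shown because these are the genes called against vehicle. These stretches are from build GRCh38.p14, 5′ to 3′ along the gene. They stand at chr21:39183452-39183701 on the minus strand for PSMG1, chr6:3258697-3258946 on the plus strand for PSMG4, chr14:35292067-35292316 on the plus strand for PSMA6 and chr1:109426449-109426698 on the minus strand for PSMA5. Capitals mark matches on either strand to the antioxidant response core TGACNNNGC, the CCAAT box, the E-box CACGTG or the ETS motif CCGGAAG.
PSMG1: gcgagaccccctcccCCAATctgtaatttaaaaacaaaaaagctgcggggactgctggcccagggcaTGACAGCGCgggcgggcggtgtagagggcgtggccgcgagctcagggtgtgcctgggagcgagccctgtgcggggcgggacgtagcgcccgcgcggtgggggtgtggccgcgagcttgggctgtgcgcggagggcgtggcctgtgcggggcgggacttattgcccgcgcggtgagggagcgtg
PSMG4: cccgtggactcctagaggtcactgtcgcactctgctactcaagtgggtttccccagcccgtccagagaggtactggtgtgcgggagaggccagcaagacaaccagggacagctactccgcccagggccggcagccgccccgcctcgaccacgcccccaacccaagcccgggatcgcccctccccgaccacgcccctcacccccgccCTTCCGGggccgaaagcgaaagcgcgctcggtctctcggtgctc
PSMA6: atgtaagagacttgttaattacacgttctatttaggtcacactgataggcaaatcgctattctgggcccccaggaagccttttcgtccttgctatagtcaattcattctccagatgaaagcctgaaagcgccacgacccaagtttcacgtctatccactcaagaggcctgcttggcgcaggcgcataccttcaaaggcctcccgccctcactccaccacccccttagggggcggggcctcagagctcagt
PSMA5: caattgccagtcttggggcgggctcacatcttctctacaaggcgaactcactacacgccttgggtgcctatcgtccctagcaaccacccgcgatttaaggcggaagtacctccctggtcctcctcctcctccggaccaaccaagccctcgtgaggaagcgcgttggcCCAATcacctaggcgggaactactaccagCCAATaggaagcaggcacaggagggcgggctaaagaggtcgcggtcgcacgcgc

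The 4 promoters did not share a motif. PSMG1 had an antioxidant response core that begins 183 bases before the start and a CCAAT box 235 bases before it. PSMG4 had an ETS motif on the opposite strand at 44 bases, PSMA5 had 2 CCAAT boxes at 83 and 54 bases, and PSMA6 had no match to any of the 4 motifs. For PSMG1, PSMG4 and PSMA6 the start used lies inside a RefSeq gene span that begins farther upstream. Of the 43 genes, 37 had a RefSeq promoter, and the first start listed for each was used. Other starts were not searched. Each promoter was searched over 300 bases that also take in the first 50 bases of the transcript. The antioxidant response core was found in 12 of the 37, against 13.6% of all 27305 promoters, and the ETS motif in 12 of the 37, against 10.7% of all. The CCAAT box was found in 17 of the 37 (35.7% of all promoters) and the E-box in 3 of the 37 (7.43% of all). A match is a string of letters and was not tested as a binding site, and 7 of the 37 had none of the motifs. PSMA7, PSMB1, PSMB6, PSMB7, PSMD4 and PSMG3 had no entry in the promoter table. The 43 genes lie on 17 chromosomes, with 7 on chromosome 14 and 7 on chromosome 17.

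In levels, the most abundant RNAs were those of the alpha and beta rings and the least abundant those of assembly chaperones. The beta subunit PSMB4 had the highest mean over the 8 libraries, at 221 TPM (range 156 to 243), and the chaperone PSMG4 the lowest, at 14.2 TPM (6.75 to 21.2). TPM divides reads by transcript length, so these levels can be set side by side. In the alpha ring the means ran between 153 TPM for PSMA6 and 53.2 TPM for PSMA5, and in the beta ring between 221 TPM for PSMB4 and 39.8 TPM for PSMB2. In the base they ran between 129 TPM for PSMD4, a ubiquitin receptor, and 41.1 TPM for the ATPase PSMC5. In the lid they ran between 111 TPM for PSMD8 and 27.7 TPM for PSMD12. Among the activators PSME1, a subunit of an interferon-inducible cap, had 91.8 TPM and PSME4, the nuclear activator PA200, had 17.1 TPM. PSMG2 led the core chaperones at 62.9 TPM, and PSMD9 (37.2 TPM) and PSMD5 (14.6 TPM) were the highest and lowest base chaperones. Subunits of the alpha ring, which enter it in equal number, therefore differed in RNA, with means between 53.2 and 153 TPM. Within a library the most abundant of the 31 subunits was 5.66 to 9.89 times the least abundant. That range is taken over core, base and lid together, whose subunits need not be equal in number.

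**Figure D1:**
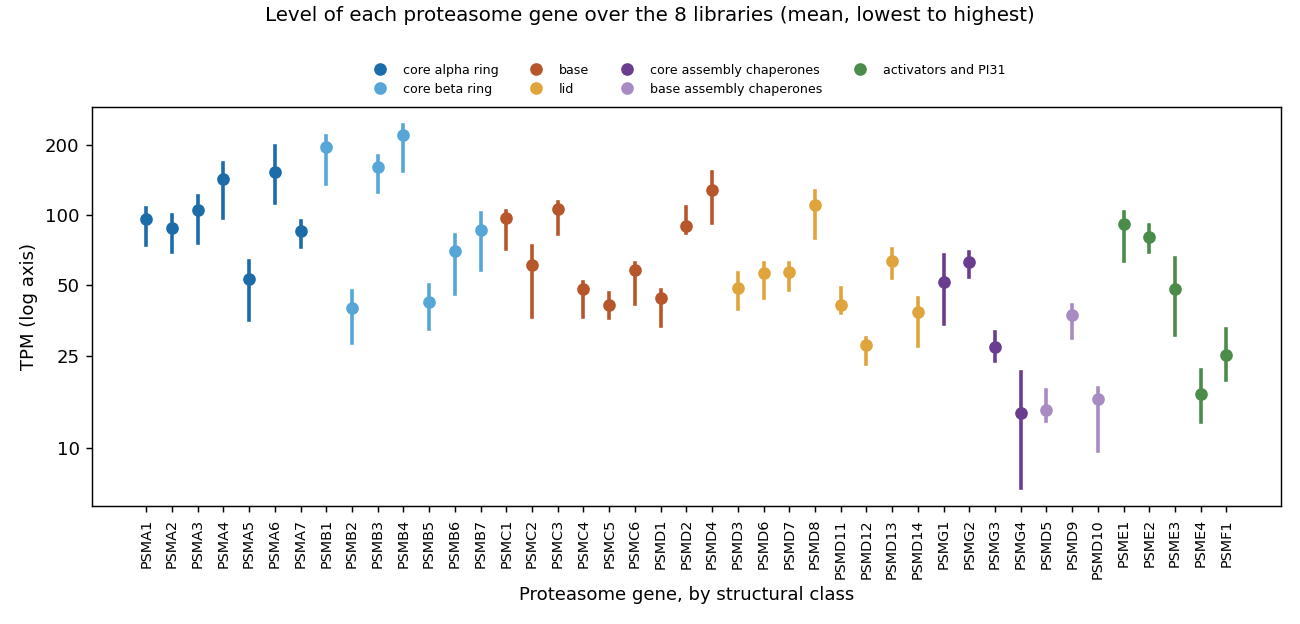
TPM of each of the 43 proteasome genes on a log axis, grouped and coloured by structural class; the point is the mean over the 8 libraries and the line runs between the lowest and the highest library. PSMB4 is highest at 221 TPM, and PSMG4 is lowest at 14.2 TPM with the longest line.

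The 3 subunits that carry the proteolytic sites were close to each other in behaviour. Libraries were made comparable by dividing each by its median ratio to the mean library, which gives scaled TPM. PSMB5, which cuts after hydrophobic residues and is the main target of bortezomib, had 40.3 and 38.4 scaled TPM with DHE, against 45.5 and 49.4 with vehicle. PSMB6, which cuts after acidic residues, had 71.0 and 64.1 scaled TPM with DHE, against 79.3 and 77.3 with vehicle. PSMB7, which cuts after basic residues, had 89.0 and 69.6 scaled TPM with DHE, against 98.3 and 96.3 with vehicle. In each of the 3 genes both DHE libraries lay below both vehicle libraries, by log2 fold changes of -0.27, -0.21 and -0.30, as was the case for 32.3% of all genes and 50.1% of the 3832 genes that averaged 20 scaled TPM or more. None passed the test, which was limma on log2 of scaled TPM plus 0.5 with Benjamini-Hochberg adjustment over the 14367 genes (adjusted p = 0.061, 0.25 and 0.19).

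With NR4A1 RNA the same subunits stood at 42.6 and 43.1 scaled TPM for PSMB5, against 36.6 and 42.6 with GFP RNA. PSMB6 had 74.3 and 75.9 scaled TPM with NR4A1 RNA, against 51.7 and 67.4 with GFP RNA. PSMB7 had 93.3 and 94.2 scaled TPM with NR4A1 RNA, against 65.9 and 85.9 with GFP RNA. Both NR4A1 libraries lay above both GFP libraries for each of the 3, though PSMB5 came close. They did so for 28.8% of all genes and 40.3% of the 3832 genes that averaged 20 scaled TPM or more. The lower value of GFP RNA was replicate 1 each time, and the log2 fold changes of 0.12, 0.34 and 0.32 did not pass (limma adjusted p = 0.41, 0.14 and 0.24).

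DHE lowered 4 of the 43 genes and raised none. Calls needed a limma adjusted p under 0.05 together with a fold above 1.5 in either direction. They were 1 partner of each core chaperone pair, PSMG1 and PSMG4, and the alpha subunits PSMA6 and PSMA5. The 4 are 9.3% of the 43 genes, and 10.1% of all genes tested were called lower, so the share was close to that of any gene. Higher calls were 0 of 43, where 9.07% of all genes were called higher.

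PSMG1, which with PSMG2 forms a dimer that guides alpha ring assembly, had 35.1 and 34.7 scaled TPM with DHE, against 64.7 and 63.4 with vehicle. The DHE libraries agreed closely and lay well under the vehicle pair, and the log2 fold change was -0.87 (SE 0.09, limma adjusted p = 0.0010). PSMG2 had 56.5 and 55.4 scaled TPM with DHE, against 63.8 and 66.2 with vehicle. Its groups did not overlap either, but its log2 fold change of -0.21 did not pass (adjusted p = 0.062). The ratio of PSMG1 to PSMG2 within a library does not depend on scaling between libraries. It was 0.622 and 0.627 with DHE, against 1.01 and 0.958 with vehicle.

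PSMG4, which pairs with PSMG3 in the other chaperone dimer of the alpha ring, had 9.03 and 6.05 scaled TPM with DHE, against 20.4 and 19.3 with vehicle. This was the largest fall among the 43 genes, with a log2 fold change of -1.36 (SE 0.18, limma adjusted p = 0.0026). PSMG3 had 28.0 and 21.7 scaled TPM with DHE, against 30.5 and 29.8 with vehicle, a log2 fold change of -0.28 that did not pass (adjusted p = 0.11). The ratio of PSMG4 to PSMG3 was 0.322 and 0.279 with DHE, against 0.670 and 0.647 with vehicle. In each dimer the called chaperone had a lower ratio to its partner in both DHE libraries than in either vehicle library. The ratios are given as values with no test.

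PSMA6, an alpha subunit of the ring that gates the core, had 115 and 109 scaled TPM with DHE, against 190 and 185 with vehicle. The log2 fold change was -0.74 (SE 0.14, limma adjusted p = 0.0096). PSMA5, the alpha subunit with the lowest level, had 42.2 and 39.0 scaled TPM with DHE, against 61.3 and 62.4 with vehicle, and its log2 fold change was -0.60 (SE 0.16, adjusted p = 0.034). The groups stood apart in both genes, and both DHE libraries lay below both vehicle libraries in 32.3% of all genes. The calls of PSMG1 and PSMG4 were kept under all 20 alternative settings tried, while PSMA6 kept its call under 17 and PSMA5 under 8. Without vehicle replicate 1, or without vehicle replicate 2, the count of lower calls was 2, PSMG1 and PSMG4. Annotated pseudogenes exist for PSMA6 (4) and PSMA5 (1) and for neither chaperone, so reads of the alpha subunits could have been shared with copies.

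With no limit on the fold, 10 of the 43 genes were lower with DHE (23.3%, against 18% of all genes) and 0 were higher (16.8% of all genes). Of the 3832 genes that averaged 20 scaled TPM or more, as 39 of the 43 did, 30.5% were lower in this way. The count of 10 moved with single libraries: it was 2 without vehicle replicate 1, 3 without vehicle replicate 2, 5 without DHE replicate 2 or either NR4A1 library, and 17 without either GFP library. It was 3 with no rescaling between libraries and 2 with equal totals after leaving out structural RNAs. Beside the 4 called, these were PSMA3 (log2 fold change -0.50) and PSMA7 (-0.27) of the alpha ring, the lid subunits PSMD3 (-0.42) and PSMD7 (-0.28), the nuclear activator PSME3 (-0.54), and PSME2 (-0.33), a subunit of the interferon-inducible cap. PSMA3 had 77.9 and 81.2 scaled TPM with DHE, against 115 and 110 with vehicle. PSMD3 had 42.8 and 38.2 scaled TPM with DHE, against 54.4 and 54.2 with vehicle. The groups did not overlap in either gene (limma adjusted p = 0.0065 and 0.013). In all, both DHE libraries lay below both vehicle libraries in 28 of the 43 genes, against 32.3% of all genes. They lay above in 1, the lid subunit PSMD11 (45.1 and 43.7 scaled TPM with DHE, against 37.0 and 41.3 with vehicle), against 37.6% of all genes.

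**Figure D2:**
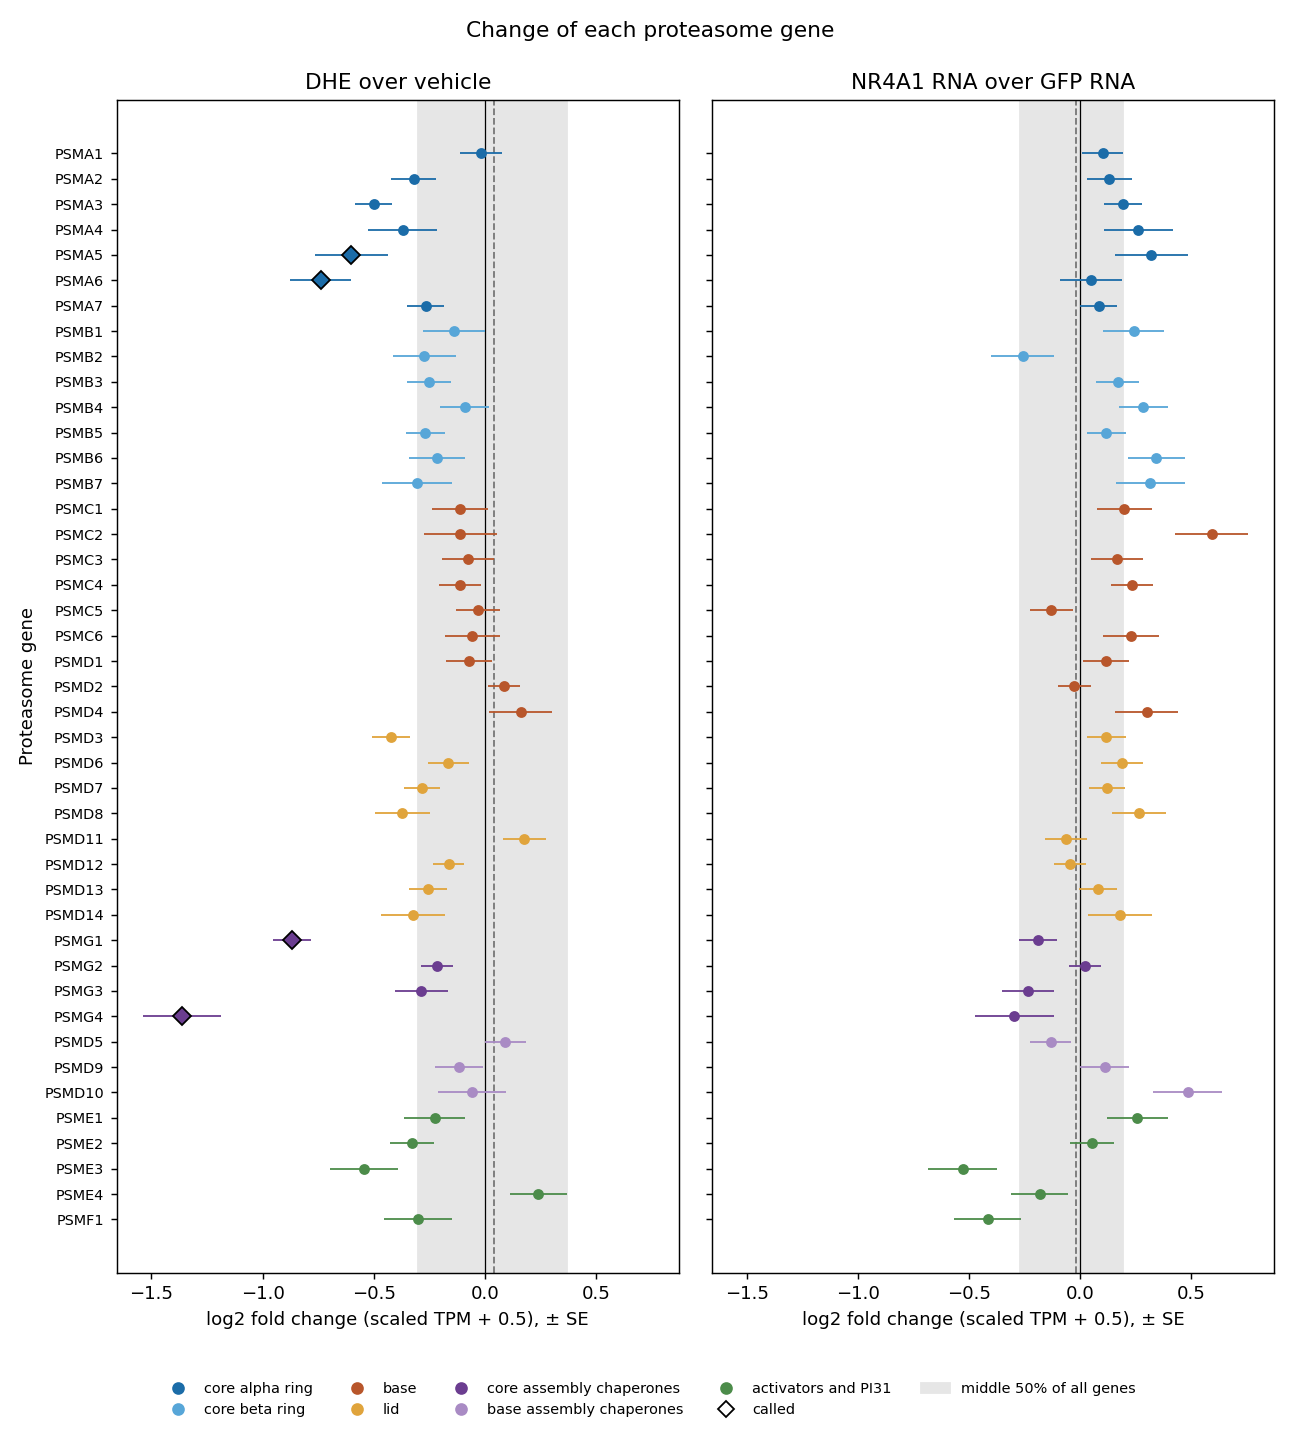
Log2 fold change of scaled TPM plus 0.5, with its standard error (2 libraries per group), for the 43 proteasome genes, DHE over vehicle on the left and NR4A1 RNA over GFP RNA on the right; diamonds mark called genes, the grey band holds the middle 50% of all genes tested and the dashed line their median. PSMG4, PSMG1, PSMA6 and PSMA5 are called lower with DHE, base genes lie near 0 on the left, and no gene is called on the right.

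The change with DHE was uneven over the particle. The median log2 fold change of the 43 genes was -0.22, with 38 negative and 5 positive, while the median of all genes was 0.04. Core chaperones had a median of -0.58 and the alpha ring of -0.37, with 2 of 4 and 4 of 7 genes past the adjusted p alone. By that limit 18% of all genes were lower, and 30.5% of the 3832 genes that averaged 20 scaled TPM or more. The lid had -0.27, with 2 of 8 past it, and the beta ring had -0.25, with 0 of 7. The base had -0.07 and 0 of 9, and the base chaperones had -0.06 and 0 of 3. Activators and regulators had -0.30, with 2 of 5. Negative values were found in all 4 core chaperones, all 7 alpha and all 7 beta subunits, 7 of 8 lid and 7 of 9 base subunits, 2 of 3 base chaperones and 4 of 5 activators and regulators. Among the base genes the ATPase PSMC5 had 37.0 and 41.7 scaled TPM with DHE, against 41.7 and 38.7 with vehicle, and the scaffold PSMD2 had 89.2 and 97.1 with DHE, against 85.1 and 90.2 with vehicle, both pairs overlapping. Genes of like abundance moved the same way in part. Over the same 3832 abundant genes the median was -0.12. Of these genes 14.8% were called lower, and in 50.1% both DHE libraries lay below both vehicle libraries.

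Ratios within a library give this unevenness without any scaling. The summed TPM of the alpha ring over that of the beta ring was 0.753 and 0.810 with DHE, against 0.926 and 0.908 with vehicle. The base over the whole core was 0.494 and 0.480 with DHE, against 0.402 and 0.401 with vehicle. The lid over the base was 0.578 and 0.600 with DHE, against 0.694 and 0.700 with vehicle. Core chaperones over the core were 0.0882 and 0.0901 with DHE, against 0.106 and 0.106 with vehicle. The 4 ratios did not overlap between DHE and vehicle. With NR4A1 RNA against GFP RNA, 3 of them did not overlap either and lay on the same side. Alpha over beta was 0.906 and 0.901 with NR4A1 RNA, against 0.920 and 0.975 with GFP RNA. Lid over base was 0.664 and 0.659 with NR4A1 RNA, against 0.693 and 0.688 with GFP RNA. Core chaperones over the core were 0.0962 and 0.0920 with NR4A1 RNA, against 0.122 and 0.111 with GFP RNA. Base over core overlapped. The sum of the 31 subunits was 2595 and 2312 scaled TPM with DHE, against 2848 and 2826 with vehicle, and all 43 genes together made up 0.296% and 0.303% of TPM with DHE, against 0.351% and 0.341% with vehicle. Values of bulk RNA are shares, so fewer cells of a kind and less RNA per cell cannot be told apart.

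**Figure D3:**
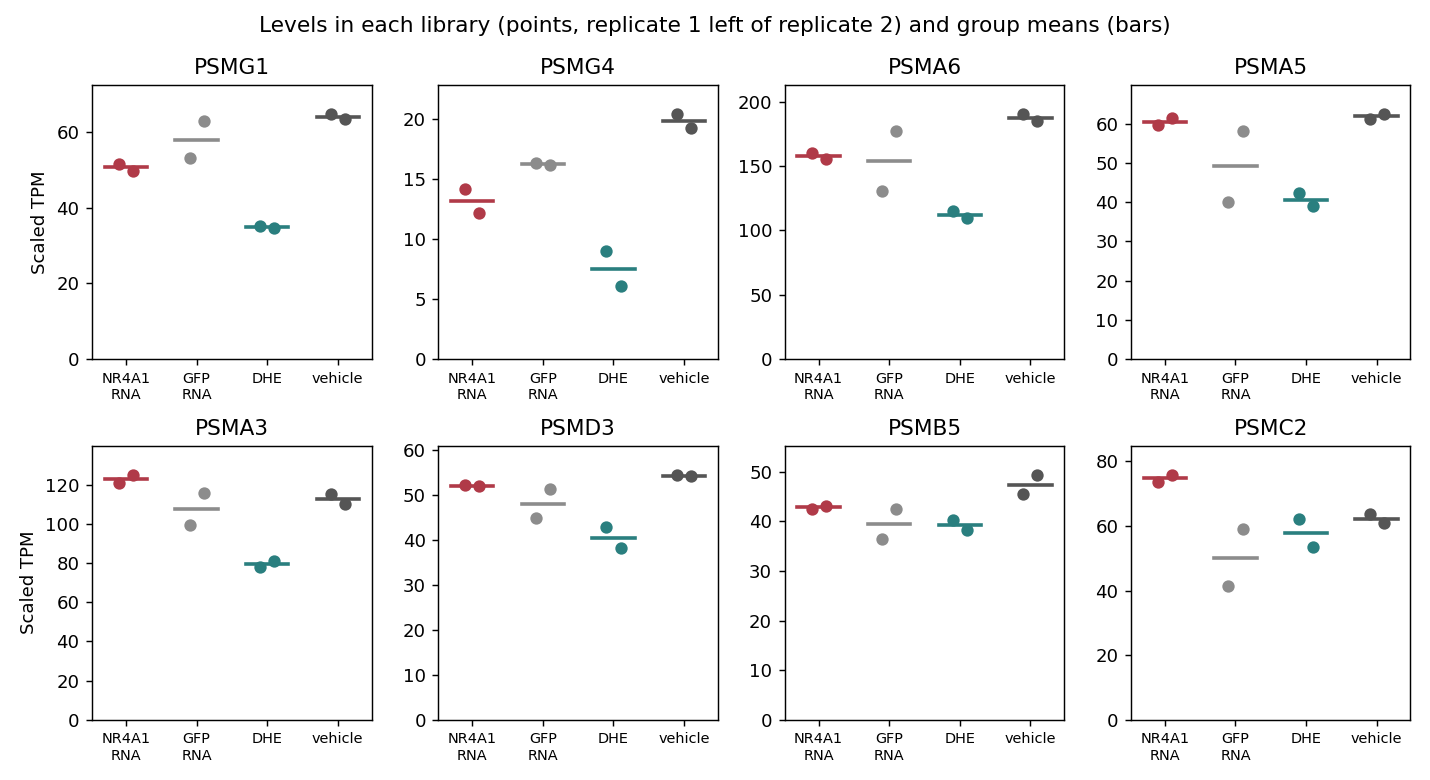
Scaled TPM of 8 proteasome genes in each of the 8 libraries (points, replicate 1 on the left) with the mean of the 2 libraries of each group (bars); each panel has its own axis that starts at 0. PSMG1 is at 35.1 and 34.7 with DHE, against 64.7 and 63.4 with vehicle, while for PSMC2 the DHE and vehicle libraries overlap and GFP RNA replicate 1 is lowest at 41.4.

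GFP RNA replicate 1 and DHE replicate 2 stood apart from the other libraries. Their abundant structural RNAs took 30.9% and 36.2% of TPM, against 40.8% to 45.7% in the other 6 libraries. Entries with ribosomal RNA sequence (MIR663A, MIR663B and RP3-410C9.1) took 21.4% and 5.22%, against 0.503% to 1.90% in the others, and the factors used for scaling were 0.887 and 1.11. DHE replicate 2 lay below DHE replicate 1 in 33 of the 43 genes and GFP RNA replicate 1 below GFP RNA replicate 2 in 34, by a median of 0.16 and 0.22 on the log2 scale. The part of these entries in the proteasome values was not tested. Without DHE replicate 2 the median log2 fold change of the 43 genes with DHE was -0.13, with 33 negative, and the calls were PSMG1, PSMG4, PSMA6 and PSME3, a count of 4 again. All 9 myeloid markers listed reached the level tested, and of 13 markers of lymphoid, erythroid, epithelial and fibroblast cells, 11 were under that level. The 2 that reached it were the epithelial keratins KRT18 and KRT8, with means of 16.8 and 2.35 TPM over the 8 libraries. Of the 9 myeloid markers 2 were called higher with DHE (9.07% of all genes) and 2 lower (10.1%). CSF1R had 4.49 and 6.60 scaled TPM with DHE, against 1.44 and 1.23 with vehicle, and PTPRC had 117 and 113 with DHE, against 53.2 and 55.1 with vehicle. FLT3 averaged 50.6 with DHE, against 97.8 with vehicle, with no overlap, and MPO had 12.3 and 12.4 with DHE, against 20.9 and 20.1 with vehicle. With NR4A1 RNA 0 of the 9 were called higher (2.64% of all genes) and 1 lower (2.26%). CSF1R had 0.601 and 0.974 scaled TPM with NR4A1 RNA, against 2.18 and 1.33 with GFP RNA. PTPRC had 93.4 and 89.9 with NR4A1 RNA, against 57.6 and 68.2 with GFP RNA. SPI1 had 18.2 and 18.0 with NR4A1 RNA, against 45.0 and 31.3 with GFP RNA. The part of the marker changes in the proteasome values was not tested.

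NR4A1 RNA changed no proteasome gene past the test. Of the 43 genes 0 were called higher and 0 lower against GFP RNA, where 2.64% and 2.26% of all genes were called, and by the adjusted p alone the counts were again 0 and 0 (4.52% and 4.27% of all genes). At an unadjusted limma p under 0.05 there were 5 higher and 2 lower. The 43 genes had a median log2 fold change of 0.12, with 31 positive and 12 negative, against a median of -0.02 over all genes. Both NR4A1 libraries lay above both GFP libraries in 25 of the 43 genes (28.8% of all genes) and below in 8 (32.1% of all genes). Over the 3832 genes that averaged 20 scaled TPM or more the median was 0.06. Of these abundant genes 40.3% lay above in this way and 28% below. Without GFP RNA replicate 1 the median of the 43 genes was 0.03, and without GFP RNA replicate 2 it was 0.25. By the adjusted p alone 13 genes were higher and 2 lower without GFP RNA replicate 2, and 0 and 0 without GFP RNA replicate 1.

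The smallest p belonged to PSMC2, an ATPase of the base, with 73.7 and 75.7 scaled TPM with NR4A1 RNA, against 41.4 and 58.9 with GFP RNA. PSME3, the nuclear activator, had 44.1 and 44.0 scaled TPM with NR4A1 RNA, against 74.0 and 55.0 with GFP RNA. PSMD10, the base chaperone also known as gankyrin, had 18.1 and 18.5 scaled TPM with NR4A1 RNA, against 10.9 and 15.3 with GFP RNA. PSMF1, the regulator PI31, had 22.4 and 23.8 scaled TPM with NR4A1 RNA, against 36.6 and 26.2 with GFP RNA. The groups did not overlap in any of the 4, and GFP RNA replicate 1 was each time the GFP library farther from the NR4A1 pair. The log2 fold changes were 0.59, -0.53, 0.48 and -0.42, with limma adjusted p between 0.082 and 0.14. Without GFP RNA replicate 2 these 4 genes passed both limits, so that count was 2 higher and 2 lower, and without GFP RNA replicate 1 it was 0 and 0. Of the 4 core chaperones 3 were on the other side of 0 from most subunits, and PSMG2 was not (log2 fold change 0.02). PSMG1 had 51.6 and 49.7 scaled TPM with NR4A1 RNA, against 53.1 and 62.9 with GFP RNA. PSMG4 had 14.2 and 12.2 with NR4A1 RNA, against 16.3 and 16.2 with GFP RNA. The groups of PSMG1 and PSMG4 did not overlap, and their log2 fold changes of -0.19 and -0.30 did not pass (limma adjusted p = 0.21 and 0.31). The ratio of PSMG1 to PSMG2 was 0.773 and 0.771 with NR4A1 RNA, against 0.870 and 0.918 with GFP RNA.

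**Figure D4:**
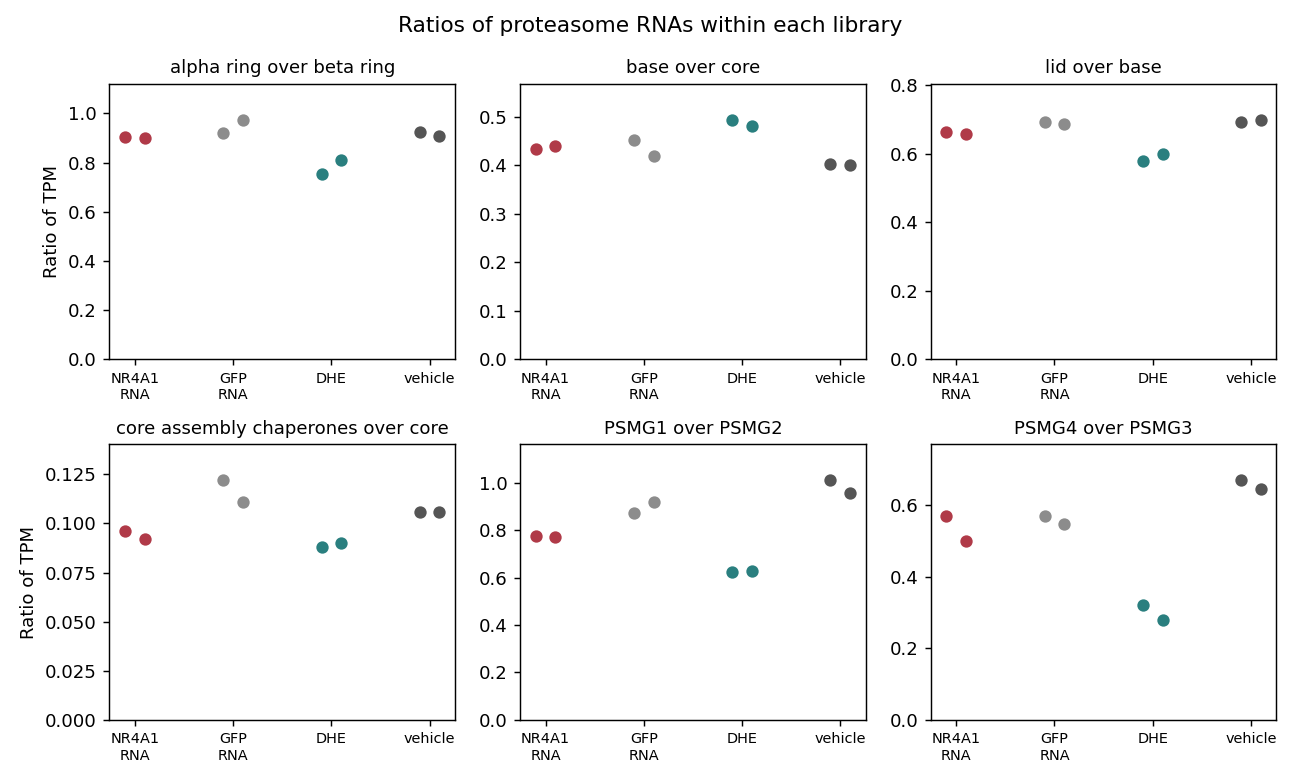
Ratios of TPM within each of the 8 libraries (points, replicate 1 on the left), for sums over structural classes and for the chaperone pairs; every axis starts at 0. The alpha over beta ratio is 0.753 and 0.810 with DHE, against 0.926 and 0.908 with vehicle, and the PSMG4 over PSMG3 ratio is 0.322 and 0.279 with DHE, against 0.670 and 0.647 with vehicle.

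The GFP RNA and vehicle controls differ in electroporation, added RNA and DMSO, which cannot be told apart here. Between GFP RNA and vehicle 0 of the 43 genes were called higher (0.0139% of all genes) and 0 lower (0% of all genes), with the same counts by the adjusted p alone, and 2 were higher and 3 lower at an unadjusted limma p under 0.05. Over all genes the median log2 fold change was 0.0006. Over the 3832 genes that averaged 20 scaled TPM or more it was -0.09, with 2569 negative. Both GFP libraries lay below both vehicle libraries in 47.9% of those 3832 genes and in 28 of the 43. The median of the 43 genes was -0.15, with 34 negative. It was -0.05 without GFP RNA replicate 1 and -0.25 without GFP RNA replicate 2. The smallest p was that of PSME4, at 20.0 and 21.3 scaled TPM with GFP RNA, against 12.5 and 14.5 with vehicle, a log2 fold change of 0.60 with adjusted p = 0.17. PSMB6 (51.7 and 67.4 scaled TPM with GFP RNA, against 79.3 and 77.3 with vehicle) had -0.40, PSMD12, a lid subunit (32.4 and 29.4 with GFP RNA, against 27.6 and 25.6 with vehicle), had 0.21, and PSMB5 (36.6 and 42.6 with GFP RNA, against 45.5 and 49.4 with vehicle) had -0.26. Their groups did not overlap, and their adjusted p were 0.22 to 0.23. Without GFP RNA replicate 2 the count of lower genes was 3 (PSMA5, PSMB6 and PSMD10), and without replicate 1 it was 0.

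The DHE effect minus the NR4A1 RNA effect tests whether the 2 treatments moved a gene differently, each against its own control, with the adjusted p as the only limit. It was negative past the test for 6 of the 43 genes (14% of the 43, against 10.9% of all genes) and positive for 0 (8.03% of all genes). The 6 were PSMA3 (-0.69 on the log2 scale, limma adjusted p = 0.016), PSMG1 (-0.68, 0.018), PSMD3 (-0.54, 0.034), PSMG4 (-1.07, 0.036), PSMA6 (-0.79, 0.042) and PSMA5 (-0.92, 0.042). PSMA3 had 121 and 125 scaled TPM with NR4A1 RNA, against 99.5 and 116 with GFP RNA, where DHE lowered it. PSMD3 had 52.1 and 52.0 scaled TPM with NR4A1 RNA, against 44.8 and 51.2 with GFP RNA. PSMG1 and PSMG4 had negative log2 fold changes in both treatments, but those with NR4A1 RNA did not pass (limma adjusted p = 0.21 and 0.31). Before scaling, the PSMG1 libraries of NR4A1 RNA and GFP RNA overlapped. Whether the differences of PSMG1 and PSMG4 concern size alone was therefore not settled. Of the 3832 genes that averaged 20 scaled TPM or more, 22.4% were negative past this test. The count of 6 moved with single libraries: it was 0 without either NR4A1 library or either vehicle library, 3 without DHE replicate 2, 9 without DHE replicate 1, 5 without GFP RNA replicate 1 and 22 without GFP RNA replicate 2.

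The 3 catalytic subunits of the immunoproteasome, which replace PSMB5, PSMB6 and PSMB7 in cells exposed to interferon and in many blood cells, were measured beside them. PSMB8 had 58.5 and 50.5 scaled TPM with DHE, against 81.2 and 80.0 with vehicle. PSMB9 had 9.33 and 9.41 scaled TPM with DHE, against 14.1 and 13.4 with vehicle. PSMB10 had 71.4 and 59.7 scaled TPM with DHE, against 84.9 and 79.7 with vehicle. All 3 were lower by the adjusted p alone (18% of all genes, 30.5% of the abundant genes above) and under the fold limit, with log2 fold changes of -0.56, -0.53 and -0.33 (limma adjusted p = 0.012, 0.0050 and 0.049). The sum of the 3 over the sum of PSMB5, PSMB6 and PSMB7 was 0.696 and 0.695 with DHE, against 0.807 and 0.777 with vehicle. It was 0.800 and 0.781 with NR4A1 RNA, against 0.914 and 0.830 with GFP RNA. PSMB8 over PSMB5 and PSMB9 over PSMB6 were lower in both DHE libraries than in either vehicle library. PSMB10 over PSMB7 overlapped, at 0.803 and 0.857 with DHE, against 0.863 and 0.828 with vehicle. Between NR4A1 RNA and GFP RNA only PSMB9 over PSMB6 did not overlap. With NR4A1 RNA 0 of the 3 immunoproteasome subunits passed, where 4.52% of all genes were higher and 4.27% lower by the adjusted p alone. PSMB8 and PSMB9 had differences between the treatments of -0.68 and -0.51 (adjusted p = 0.036 and 0.034).

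Of 13 further subunits and partners, 0 were called with either treatment. Among all genes 10.1% were called lower and 9.07% higher with DHE, and 2.26% and 2.64% with NR4A1 RNA. By the adjusted p alone 4 of the 13 were lower (18% of all genes) and 2 higher (16.8%) with DHE. The 2 higher were PITHD1 (29.2 and 30.4 scaled TPM with DHE, against 22.6 and 22.3 with vehicle) and ZFAND5 (31.6 and 34.8 with DHE, against 25.7 and 27.2 with vehicle), with log2 fold changes of 0.40 and 0.32 (limma adjusted p = 0.0040 and 0.016). POMP, the chaperone of the beta ring and of core maturation, had 66.9 and 61.4 scaled TPM with DHE, against 81.6 and 79.3 with vehicle (log2 fold change -0.33, limma adjusted p = 0.015). The ubiquitin receptor ADRM1 had 36.4 and 32.2 scaled TPM with DHE, against 41.5 and 41.8 with vehicle (-0.28, adjusted p = 0.028). The small lid subunit SEM1 had 113 and 71.5 scaled TPM with DHE, against 100 and 94.1 with vehicle, so its groups overlapped (-0.11, adjusted p = 0.76). For POMP and ADRM1 both DHE libraries lay below both vehicle libraries. With NR4A1 RNA the same genes had log2 fold changes of 0.19, 0.04 and 0.58, none of which passed (adjusted p = 0.14, 0.72 and 0.18), and for POMP the difference between the treatments was -0.51 (adjusted p = 0.022).

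Among 9 tested genes of the route by which NRF1 is made and paired, NFE2L1 itself had 25.6 and 19.4 scaled TPM with DHE, against 22.7 and 19.2 with vehicle, which overlapped (log2 fold change 0.09, limma adjusted p = 0.67). NFE2L2, the related factor NRF2, had 25.1 and 28.3 scaled TPM with DHE, against 16.8 and 16.3 with vehicle, and was called higher (0.67, adjusted p = 0.0035). MAFK, a small partner of both factors, had 3.47 and 3.38 scaled TPM with DHE, against 6.20 and 6.14 with vehicle (-0.76, adjusted p = 0.0074). DDI2, the protease that activates NRF1, had 3.09 and 4.16 scaled TPM with DHE, against 5.72 and 5.75 with vehicle (-0.61, adjusted p = 0.020). NFE2L3, a relative of both, had 1.30 and 1.39 scaled TPM with DHE, against 3.16 and 3.02 with vehicle (-0.96, adjusted p = 0.042). The groups stood apart in all 4 called genes, 1 of 9 higher (9.07% of all genes) and 3 of 9 lower (10.1%). Over all genes, both DHE libraries lay above both vehicle libraries in 37.6% and below in 32.3%. With NR4A1 RNA 0 of the 9 were called, where 2.64% of all genes were called higher and 2.26% lower.

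Of 7 antioxidant genes of NRF2, NQO1 and SQSTM1 were called higher with DHE (9.07% of all genes) and 0 were called lower (10.1%). HMOX1 is set apart below. By the adjusted p alone GCLM was also higher (16.8% of all genes). It had 19.2 and 19.8 scaled TPM with DHE, against 13.5 and 14.4 with vehicle. GCLC, TXNRD1 and SRXN1 had log2 fold changes of -0.09, -0.23 and -0.16 with DHE, which did not pass (limma adjusted p = 0.42, 0.18 and 0.17). NQO1, a quinone reductase, had 33.8 and 26.2 scaled TPM with DHE, against 16.6 and 17.6 with vehicle (log2 fold change 0.78, limma adjusted p = 0.0064). SQSTM1, an adaptor that binds ubiquitin chains, had 65.7 and 54.7 scaled TPM with DHE, against 38.0 and 38.4 with vehicle (0.64, adjusted p = 0.0065). HMOX1, a haem oxygenase, stayed under 1 scaled TPM in both groups, at 0.874 and 0.971 with DHE, against 0.208 and 0.333 with vehicle (0.89, adjusted p = 0.029). It reached the 1 TPM that testing asked for only in 1 NR4A1 library and 1 DHE library, so it was tested only through libraries where it is high and its call is given as a description. NQO1 was also the only called gene of this list with NR4A1 RNA, at 34.3 and 32.8 scaled TPM, against 15.9 and 18.2 with GFP RNA (0.96, adjusted p = 0.013). For SQSTM1 the groups of NR4A1 RNA and GFP RNA overlapped, and the treatments differed by 0.74 (adjusted p = 0.026).

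Ubiquitin itself and the carriers that bring substrates to the proteasome completed the set. Of 6 genes for ubiquitin and its activating enzymes 0 were called in either treatment. Of all genes 10.1% were called lower and 9.07% higher with DHE, and 2.26% and 2.64% with NR4A1 RNA. By the adjusted p alone 2 of the 6 were lower with DHE (18% of all genes), UBB among them. The polyubiquitin gene UBB had 517 and 457 scaled TPM with DHE, against 664 and 667 with vehicle (log2 fold change -0.45, limma adjusted p = 0.019), and 704 and 729 with NR4A1 RNA, against 529 and 624 with GFP RNA (0.32, adjusted p = 0.11). Neither pair of groups overlapped, and the difference between the treatments was -0.77 (adjusted p = 0.022). Of 11 shuttle factors and parts of the p97 unfoldase, 1 was called lower with DHE (10.1% of all genes) and 0 with NR4A1 RNA (2.26%). This was UBQLN4, at 9.17 and 10.5 scaled TPM with DHE, against 17.0 and 17.5 with vehicle (-0.78, adjusted p = 0.0012). It was also lower with NR4A1 RNA by the adjusted p alone, at 13.3 and 12.6 scaled TPM, against 17.5 and 17.7 with GFP RNA (-0.42, adjusted p = 0.032).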

How the data were processed

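RNA-seq was analysed from 8 MOLM-14 libraries, and the ChIP-seq samples of the series were not analysed here. Libraries were paired-end and strand-marked, from total RNA without most ribosomal RNA. The authors trimmed reads with Trim Galore, quantified them with Salmon 0.11.0 against Gencode transcripts (human) and deposited TPM per gene, which sum to an equal total per library. How transcripts were summed to genes is not given in the sources used here. TPM keep no read counts, so depth and counting error are unknown, and precision rests on 2 libraries per group. The deposited fold changes and p-values, and 2 sheets chosen by them, were not used.

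Scaling was by the median of ratios over 11460 genes. The filter asked for 1 TPM or more in 2 or more libraries, which 14367 genes met. Scaled TPM, with 0.5 added and on a log2 scale, went into limma 3.58.1 (R 4.3.3) with a trend, 1 mean per group, 4 residual and 2.07 prior degrees of freedom. A fold change on this scale understates that of low genes. Calls needed an adjusted p under 0.05 and over 1.5-fold, or the adjusted p alone where stated. The steps were tested on simulated data. Named genes were the catalytic subunits, the members with the smallest p in each comparison, the highest and lowest member of each class, and, from other lists, PSMB8, PSMB9, PSMB10, POMP, ADRM1, SEM1, NFE2L1 and up to 3 called genes. UBB, PSMG2, PSMG3, PSMC5, PSMD2, PSMD11, GCLC, TXNRD1, SRXN1, PITHD1, ZFAND5, the myeloid markers and the genes past the adjusted p alone were named after their values were seen, as were the ratios, the motifs and the level minimum of 20. The members and lists were chosen with earlier results of these data known. Alternatives were other scalings, pseudocounts (0.1 and 1), filters, weights, a replicate block, the compared libraries alone and leaving out each library.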

Additional observations from a re-analysis of the deposited data

Results flagged for a closer look

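Among the proteasome genes and the named genes of its pathways, myeloid markers left aside, 11 were flagged because the DHE effect and the NR4A1 RNA effect differed by a test of the difference itself (limma, adjusted p under 0.05, values on the log2 scale). Of the proteasome genes these were PSMA3 (-0.69), PSMG1 (-0.68), PSMD3 (-0.54), PSMG4 (-1.07), PSMA6 (-0.79) and PSMA5 (-0.92). Of the genes around the proteasome they were PSMB8 (-0.68), PSMB9 (-0.51), the chaperone POMP (-0.51), the polyubiquitin gene UBB (-0.77) and the adaptor SQSTM1 (0.74). SQSTM1 was the only gene of the 11 with a positive difference. Groups of 2 libraries are too small to test a single library as an outlier.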

How the results depend on the processing

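PSMG1 and PSMG4 kept their lower call with DHE under every alternative, with log2 fold changes of -0.88 to -0.77 and -1.63 to -1.09. The count of proteasome genes called lower with DHE was 4. It was 2 with equal totals after leaving out structural RNAs, 10 with no limit on the fold, 3 when entries with ribosomal RNA sequence were left out too (a scaling added after the data were seen) and 2 to 4 without a single library (2 without vehicle replicate 1 or vehicle replicate 2). The counts with NR4A1 RNA were 0 to 2 higher and 0 to 2 lower without a single library, and the count lower with GFP RNA against vehicle was 0 to 3, each highest without GFP RNA replicate 2. The count of negative differences between the treatments was 6. It was 1 with no rescaling, 0 with equal totals after leaving out structural RNAs, 2 with no filter, 11 with array quality weights, 17 without GFP RNA replicate 1 and DHE replicate 2 together, and 0 to 22 without a single library: 0 without NR4A1 RNA replicate 1 or 2 or vehicle replicate 1 or 2, 3 without DHE replicate 2 and 22 without GFP RNA replicate 2. The cause was not tested.

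With a replicate block the DHE count was 4 and the count of differences between the treatments 3. In the labels, same-numbered samples share only the number. Deviations of same-numbered libraries correlated at 0.07 for NR4A1 RNA with GFP RNA and 0.06 for DHE with vehicle. Other pairs had -0.04 (NR4A1 RNA with DHE), -0.02 (NR4A1 RNA with vehicle) and 0.01 (GFP RNA with vehicle). GFP RNA with DHE had -0.42, so there libraries of unlike number deviated in the same direction. Whether any libraries shared a batch was not tested. With upper quartile scaling the median log2 fold change of the 43 genes with DHE was -0.13, where the median of all genes was 0.13. For NR4A1 RNA the median of the 43 genes was 0.34 with equal totals after leaving out structural RNAs. The median of all genes was 0.18 there. With 2 libraries per group and no read counts, small changes of single subunits could not be resolved.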
